A study of Mus musculus with 10 samples.

Results

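Transcripts of the sarcomeric myosin heavy chains were compared between calf muscle (gastrocnemius) of mice that had lost myostatin as adults and that of control mice. The genes described are Myh4, Myh1, Myh2, Myh7, Myh7b, Myh3 and Myh8, taken as every probe set annotated to 1 of these symbols and to no other gene. They are 7 of the 18194 genes named on the array and 10 of its 45101 probe sets, with 3 probe sets for Myh1, 2 for Myh4 and 1 for each of the others. The brightest probe set over all arrays represents a gene with several. Another 2 probe sets name both Myh7 and the cardiac gene Myh6 and are given beside Myh7 as values.

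Each of 10 arrays held RNA of 1 male mouse aged 7.5 months on a C57BL/6 background. The control group was 5 mice with normal myostatin genes, and the knockout group was 5 mice whose myostatin genes were floxed, that is, flanked by the sites that Cre recombinase cuts. Controls and knockouts alike carried the CAGG-CreER transgene and were injected 8 times with tamoxifen from 4 months of age, so Cre and tamoxifen were common to both groups. The CAGG promoter is active in most cell types, so Cre was not restricted to muscle fibres by its promoter, and where deletion took place was not measured here. Myostatin is a secreted growth factor that restrains muscle growth, and the design asks how its loss after development changes gene expression in the muscle. No probe set carried the symbol Mstn, so the genotype labels had no check from the targeted transcript. All values are log2 of the deposited array intensity. The highest value on an array lay between 16.01 and 16.07.

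Myosin heavy chains are the motor proteins of the thick filament, and the isoform that a fibre holds sets how fast it contracts. Adult mouse limb muscle uses the fast isoforms IIb (Myh4), IIx (Myh1) and IIa (Myh2) and the slow isoform (Myh7), while Myh3 and Myh8 encode the embryonic and perinatal isoforms that are normally replaced after birth and return when fibres regenerate. Myh7b is a divergent slow-type gene of heart and some skeletal fibres. The mouse gastrocnemius is a mostly fast muscle with a smaller part of slow and oxidative fibres.

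By the order of genes in GRCm38.p6, 5 of the 7 lay in a cluster on chromosome 11, in the order Myh3, Myh2, Myh1, Myh4, Myh8. In the order of start positions no other protein-coding gene came between them. In that order 2 long non-coding RNA genes came between Myh3 and Myh2, and the long non-coding RNA gene Myhas between Myh1 and Myh4. A microRNA gene, Mir6923, lay within Myh3. Myh7 was on chromosome 14 and Myh7b on chromosome 2. The RefSeq promoter windows, which run from 250 bases before the start of each gene to 50 bases after it, matched all 7 genes. They are shown for the 4 neighbours Myh2, Myh1, Myh4 and Myh8 because these share 2 runs of bases in the same order and on the same strand, and it is among these neighbours that the adult fast genes lie. The parts that hold both runs are printed below on the + strand of GRCm38.p6, 5′ to 3′, with the shared runs in capitals.
Myh2, chr11:67170844-67170925: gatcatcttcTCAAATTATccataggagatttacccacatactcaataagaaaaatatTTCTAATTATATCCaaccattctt
Myh1, chr11:67199876-67199965: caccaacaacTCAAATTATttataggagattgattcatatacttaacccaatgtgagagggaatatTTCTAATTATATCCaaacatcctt
Myh4, chr11:67237615-67237677: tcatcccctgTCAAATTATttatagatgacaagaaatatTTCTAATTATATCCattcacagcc
Myh8, chr11:67277010-67277093: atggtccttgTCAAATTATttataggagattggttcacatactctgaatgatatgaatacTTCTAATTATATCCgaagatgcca

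The 14-base run TTCTAATTATATCC occurred in 4 of the 32544 mouse promoter windows searched on both strands, a share of 0.0123%, and those 4 were the windows of these genes. The 9-base run TCAAATTAT occurred in 59 windows, or 0.181%. The 14-base run began 125 bases before the start of Myh2, 160 before Myh1, 158 before Myh4 and 54 before Myh8. Neither run was found in the windows of Myh3, Myh7 and Myh7b. A match describes these letters only and was not tested against any measurement.

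Myh7 and Myh7b are also the genes within which RefSeq places the microRNAs miR-208b and miR-499, which the array did not measure. The embryonic gene Myh3 also holds a microRNA, miR-6923, so holding one is not particular to the slow-type genes. The mature strands of miR-208b and miR-499 are shown because the seeds of this pair are alike. The seed, bases 2 to 8, is in capitals, and the first 6 seed bases, UAAGAC, are the same in both.
miR-208b-3p in Myh7, chr14:54975710-54975731, - strand: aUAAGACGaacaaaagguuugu
miR-499-5p in Myh7b, chr2:155622893-155622913, + strand: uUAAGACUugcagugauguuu

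No myosin heavy chain differed between knockout and control beyond the spread between mice. All 10 probe sets averaged at least 4 on the log2 scale and entered the limma test of 21154 probe sets. Of the 10, 0 were past an adjusted p of 0.05, 0 had an unadjusted p under 0.05, and 0 had groups that did not overlap. Over all probe sets tested, 0.0993% were past the adjusted threshold (21, of which 11 were higher in knockouts and 10 lower), 7.69% had an unadjusted p under 0.05 and 2.06% had groups that did not overlap. With 10 members, a count of 0 is near these backgrounds. By their brightest probe sets 3 of the 7 genes had a higher mean in knockouts and 4 a lower one. Their median difference was -0.04 (knockout minus control, log2), beside -0.005 over the brightest probe sets of all 10705 genes tested.

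**Figure D1:**
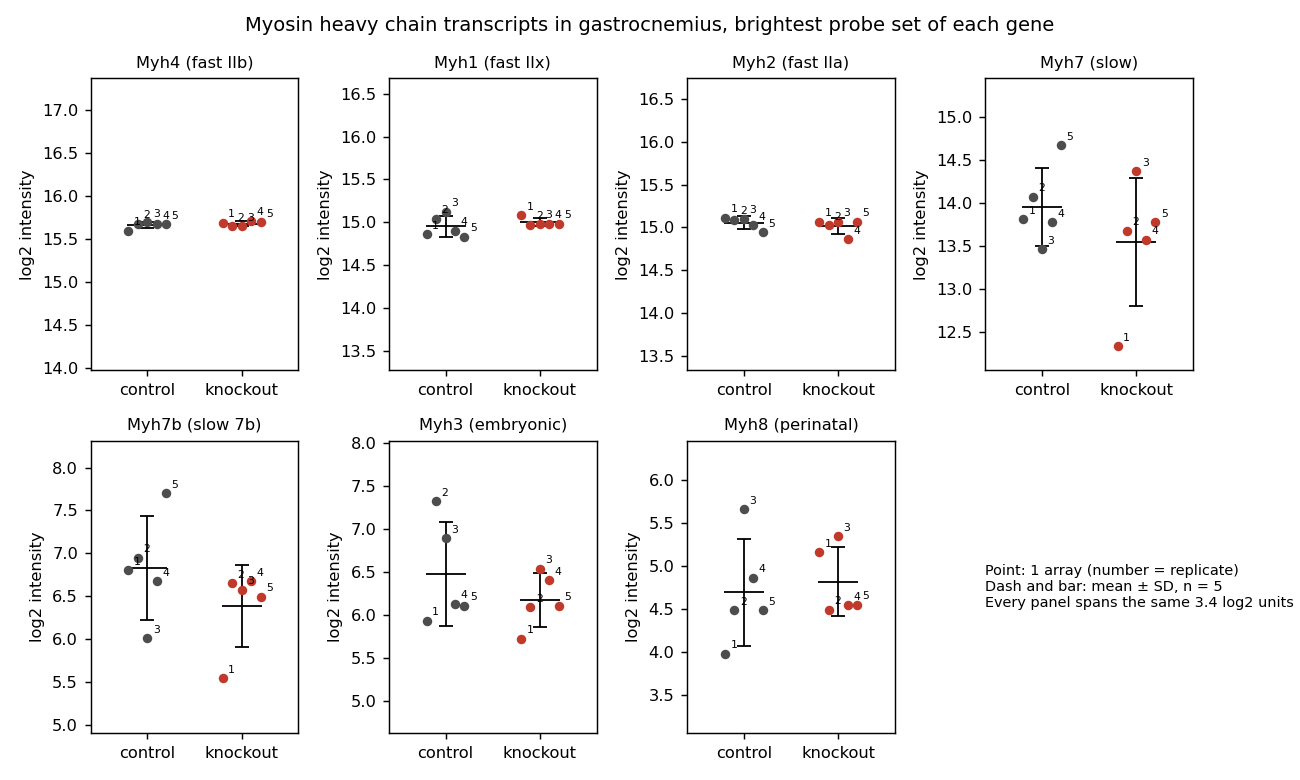
Log2 intensity of the brightest probe set of each myosin heavy chain gene in the 5 control and 5 knockout arrays; points are single mice with their replicate numbers, the dash and bar are mean ± SD, and every panel spans the same 3.4 log2 units. The groups overlap in all 7 panels, and the points of Myh4, Myh1 and Myh2 lie close together while those of Myh7 and Myh7b spread over more than 2 units.

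The fast IIb gene Myh4 (probe set 1427026_at) read 15.60, 15.67, 15.70, 15.67 and 15.67 in control mice 1 to 5. Knockout mice 1 to 5 read 15.69, 15.64, 15.65, 15.71 and 15.69. Control 1 was the lowest of all, and the other 9 mice of both groups lay between 15.64 and 15.71. The control mean was 15.66 ± 0.04 and the knockout mean 15.68 ± 0.03 (SD, n = 5 each), a difference of 0.02 with a 95% interval from -0.11 to 0.14 (limma, adjusted p = 0.990). In linear terms the knockout level was 1.01 times the control level, with bounds of 0.929 and 1.10. The dimmer probe set of this gene, 1458368_at, gave 13.13 ± 0.03 and 13.11 ± 0.11, and so had the opposite sign with an interval that also spans 0.

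The fast IIx gene Myh1 was read by 3 probe sets. The brightest, 1427868_x_at, gave 14.86, 15.04, 15.13, 14.90 and 14.83 in controls and 15.09, 14.97, 14.98, 14.98 and 14.98 in knockouts. Knockout 1 stood above the other knockouts, and the knockouts lay inside the range of the controls. The means were 14.95 ± 0.13 and 15.001 ± 0.048 (n = 5 each), which differ by 0.05 with an interval from -0.12 to 0.21 (limma, adjusted p = 0.971). The second probe set, 1427520_a_at, differed by 0.13 (interval -0.14 to 0.39) and the third, 1452465_at, by 0.01.

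The 3 Myh1 probe sets did not order the mice in the same way. Control 3 and knockout 1 were the highest 2 mice for the brightest probe set, at 15.13 and 15.09, and the highest 2 for the second, at 14.36 and 14.27. For the third they were the lowest 2, at 10.14 and 10.38, while the other mice lay between 10.61 and 10.80. The suffix _x_at marks a probe set with probes that can match other transcripts, and the fast myosins are close paralogues, so the isoform that this probe set reads is uncertain. The annotation also gives the brightest Myh1 probe set the same source transcript as the Myhas probe set 1427867_at, and whether the array separates the strands here is not given in the sources used here. Myhas read 14.05, 14.28, 14.51, 14.15 and 14.04 in controls and 14.33, 14.21, 14.30, 14.25 and 14.23 in knockouts. Its groups differed by 0.05 (limma, adjusted p = 0.974).

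The fast IIa gene Myh2 (1425153_at) read 15.12, 15.09, 15.10, 15.02 and 14.94 in controls and 15.07, 15.03, 15.07, 14.86 and 15.07 in knockouts. Knockout 4 was below every control, and the other 4 knockouts lay among the controls. The means of 15.06 ± 0.07 and 15.02 ± 0.09 (n = 5 each) differ by -0.04, with an interval from -0.19 to 0.12 (limma, adjusted p = 0.976).

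These fast genes sat near the top of the array scale, where a difference may be compressed. Myh4 was the fifth brightest probe set on each of the 10 arrays and lay 0.33 to 0.44 below the highest value of its array. Myh2 lay 0.92 to 1.19 below it and was within 1 unit on 6 arrays. The brightest Myh1 probe set lay 0.95 to 1.18 below it and was within 1 unit on 3 arrays. How much of a difference is lost at this level was not tested. The less bright Myh1 and Myh4 probe sets, 1427520_a_at and 1458368_at, stayed at least 1.71 and 2.81 units below the highest value, and their intervals also span 0.

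**Figure D2:**
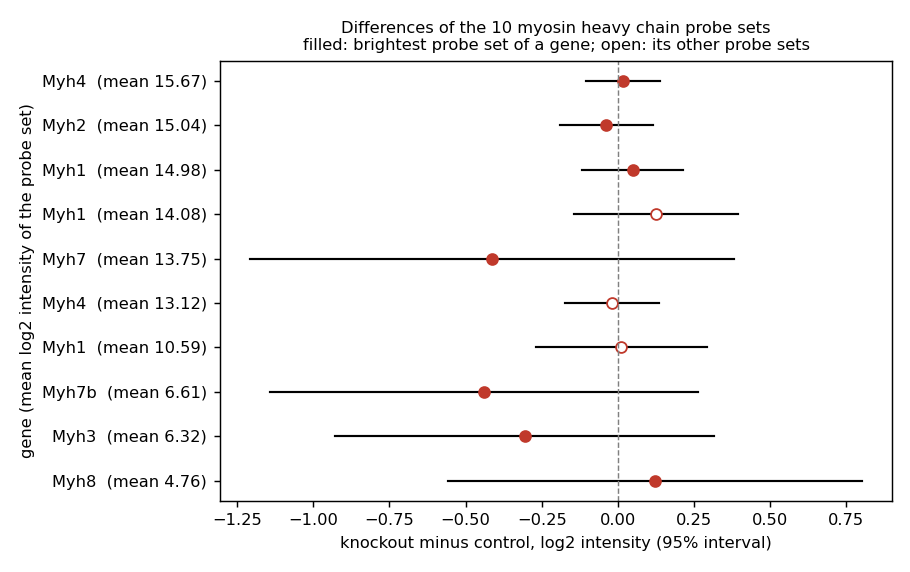
Knockout minus control in log2 intensity for the 10 myosin heavy chain probe sets, with 95% intervals from the limma fit; filled points are the brightest probe set of a gene, open points its other probe sets, and the mean log2 intensity stands beside each symbol. Every interval spans 0, and the interval of Myh7 runs from -1.21 to 0.38 while that of the brightest Myh4 probe set runs from -0.11 to 0.14.

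The slow gene Myh7 (1448553_at) varied far more between mice. Controls read 13.81, 14.07, 13.46, 13.77 and 14.67, and knockouts read 12.33, 13.68, 14.37, 13.57 and 13.78. Control 5 was the highest mouse and knockout 1 the lowest, a 5.07-fold range, and knockout 3 was second only to control 5. The means were 13.96 ± 0.45 and 13.55 ± 0.75 (n = 5 each), a difference of -0.41 with an interval from -1.21 to 0.38 (limma, adjusted p = 0.889). On the linear scale the knockout level was 0.751 times that of controls, with bounds of 0.433 and 1.30, and values below and above the control level are both inside these bounds. Knockout 1 carried most of the difference, which was -0.11 without that mouse, and it was -0.23 without control 5. The difference between the groups made up 12.2% of the variance of Myh7 over the 10 mice.

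The probe set 1448554_s_at, which names Myh7 and Myh6, ordered the extreme mice in the same way. It read 11.40, 11.72, 10.98, 11.31 and 12.84 in controls and 9.25, 11.25, 12.39, 11.20 and 11.30 in knockouts, and its groups differed by -0.57 (interval -1.78 to 0.64, limma, adjusted p = 0.909). The other shared probe set, 1448827_s_at, did not pass the filter. Myh6, the fast heart isoform, had 2 probe sets of its own, neither of which passed the filter: one stayed between 2.36 and 2.53 and the other between 2.50 and 5.51.

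Myh7b (1444305_at) read 6.80, 6.95, 6.01, 6.68 and 7.70 in controls and 5.54, 6.65, 6.58, 6.67 and 6.50 in knockouts. Its highest and lowest mice were again control 5 and knockout 1, 4.45-fold apart, and the other 4 knockouts lay within 0.2 units of each other. The means of 6.83 ± 0.60 and 6.39 ± 0.48 (n = 5 each) differ by -0.44, with an interval from -1.14 to 0.26 (limma, adjusted p = 0.839). Without knockout 1 the difference was -0.23, and without control 5 it was -0.22.

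The embryonic gene Myh3 (1427115_at) read 5.93, 7.33, 6.89, 6.13 and 6.10 in controls and 5.72, 6.08, 6.54, 6.40 and 6.11 in knockouts. Controls 2 and 3 were the highest mice, and the other 3 controls lay among the knockouts. The means of 6.48 ± 0.60 and 6.17 ± 0.32 (n = 5 each) differ by -0.31, with an interval from -0.93 to 0.32 (limma, adjusted p = 0.903). Without control 2 the difference was -0.09.

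The perinatal gene Myh8 (1426650_at) was the dimmest. It read 3.98, 4.48, 5.66, 4.86 and 4.49 in controls and 5.16, 4.49, 5.35, 4.54 and 4.55 in knockouts. Control 3, knockout 3 and knockout 1 were the highest mice, in both groups, and the means of 4.69 ± 0.62 and 4.82 ± 0.40 (n = 5 each) differ by 0.12 (interval -0.56 to 0.80, limma, adjusted p = 0.984). The same 3 arrays had the highest bacterial hybridisation controls, spike-in probe sets that report on the array itself, with a mean of 13.12 ± 0.14 over control arrays and 13.15 ± 0.25 over knockout arrays. Across the 10 arrays Myh8 followed those controls (r = 0.841, permutation p = 0.0025, adjusted p = 0.040 over 35 relations, and rho = 0.75, permutation p = 0.017, adjusted p = 0.198). With knockouts 1 and 3, which lie farthest out on the controls, left aside, r was 0.791. The 3 arrays of highest hybridisation controls also had the highest median log2 over the whole array. It was 3.611 on control 3, 3.6043 on knockout 1 and 3.6548 on knockout 3, and between 3.3695 and 3.4785 on the other arrays. Whether the relation is particular to Myh8 or shared by other dim probe sets was not tested. With the hybridisation controls as a covariate the difference of Myh8 was 0.05, and without the 3 arrays where they were highest it was 0.07.

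The spread between mice was set against that of probe sets of like brightness, since dim probe sets vary more on this scale. The within-group SD of Myh7, 0.62, was higher than that of 99.7% of the 907 probe sets within 1 log2 unit of its level. The median SD was 0.093 for probe sets between 12 and 14 and 0.056 for those between 14 and 15. The same share was 96.0% for the second Myh1 probe set, 85.5% for the brightest one and 77.8% for Myh2. For Myh4, with an SD of 0.03, it was 34.4%. Among the dim genes it was 82.8% for Myh7b, 72.1% for Myh3 and 65.7% for Myh8.

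**Figure D3:**
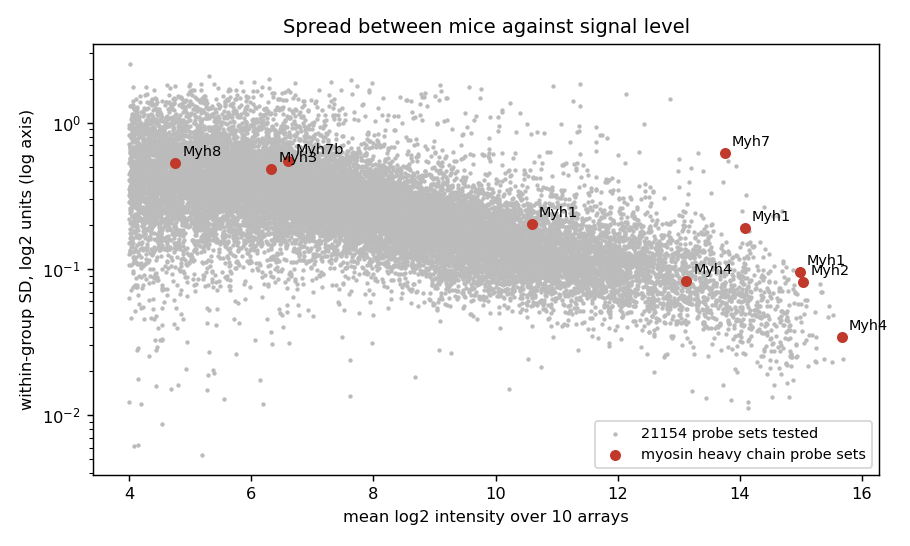
Within-group SD of log2 intensity (log axis) against mean log2 intensity over 10 arrays for the 21154 probe sets tested (grey) and the 10 myosin heavy chain probe sets (red). Myh7, at an SD of 0.62, lies above nearly all probe sets of its level, and the brightest Myh4 probe set, at 0.03, lies among the brightest and least variable.

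Myh7 moved together with other slow fibre genes from mouse to mouse. Over the 10 mice Myh7 correlated with the mean of 13 other slow fibre genes (r = 0.922, permutation p = 0.00018, adjusted p = 0.0063 over 35 relations, and rho = 0.891, permutation p = 0.0008, adjusted p = 0.028). With knockouts 1 and 3, which lie farthest out on that mean, left aside, r was 0.937. By deviations from the group means the 3 genes of 10278 most like Myh7 were the slow troponins: Tnnc1 (troponin C, r = 0.996), Tnnt1 (troponin T, r = 0.989) and Tnni1 (troponin I, r = 0.982). These stayed at 0.995, 0.976 and 0.977 without control 5 and knockout 1. Tnnc1 read 13.92, 14.15, 13.61, 13.93 and 14.71 in controls and 12.86, 13.93, 14.48, 13.83 and 13.92 in knockouts. Control 5 and knockout 3 were its highest mice and knockout 1 its lowest, as for Myh7, and its groups differed by -0.26 (limma, adjusted p = 0.938).

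Myh7b followed Myh7 less closely. Over the 10 mice r was 0.880 (permutation p = 0.0034, adjusted p = 0.040) and rho was 0.697 (permutation p = 0.030, adjusted p = 0.264). Without control 5 and knockout 1 r was lower, at 0.466, with knockout 3 still among the mice. Knockout 3 separates the pair: it was second of 10 for Myh7 and seventh for Myh7b. Besides this relation, that of Myh7 with the slow fibre genes and that of Myh8 with the hybridisation controls, none of the 35 had an adjusted p under 0.05 for r. The lowest of the others was Myh1 with Myh7b (r = -0.778, permutation p = 0.0075, adjusted p = 0.066, and rho = -0.648, permutation p = 0.049, adjusted p = 0.287).

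**Figure D4:**
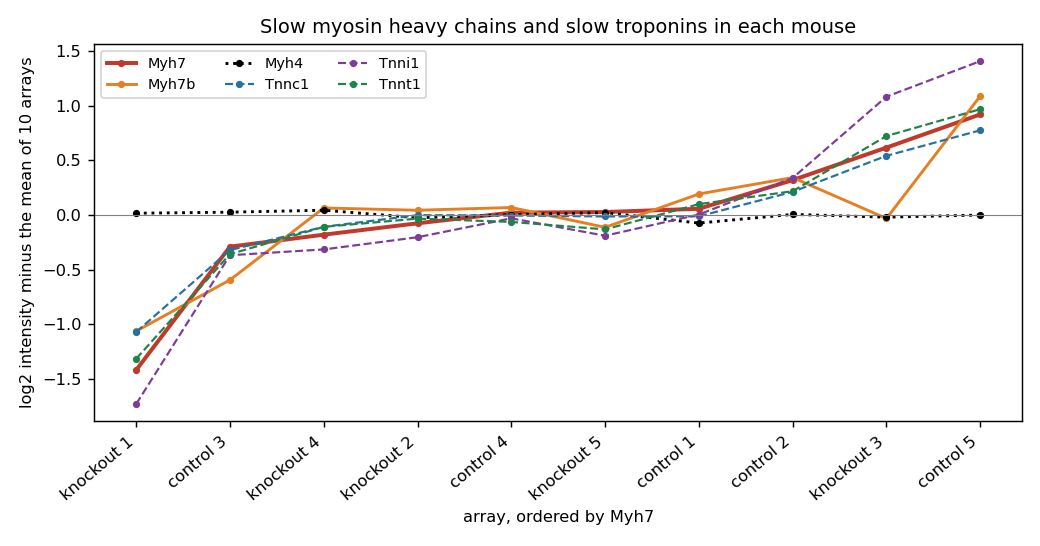
Log2 intensity minus the mean of 10 arrays for the slow genes Myh7 and Myh7b, the slow troponins Tnnc1, Tnni1 and Tnnt1, and the fast IIb gene Myh4, with the arrays ordered by Myh7. Knockout 1 is lowest and control 5 highest for Myh7, both groups are mixed along the order, Myh7b leaves the others at knockout 3, and Myh4 stays near 0.

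Differences between isoforms were also taken within each mouse. Myh7 minus Myh4 was -1.70 ± 0.46 over controls and -2.13 ± 0.76 over knockouts (mean ± SD of 5 mice), with knockout 1 at -3.35 and control 5 at -0.995. Myh4 minus Myh2 was 0.61 ± 0.09 and 0.66 ± 0.11, and Myh2 minus Myh1 was 0.10 ± 0.10 and 0.02 ± 0.09. These are differences of probe sets on 1 array and not ratios of transcript amounts, and since Myh4 hardly varied, Myh7 minus Myh4 restates Myh7.

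For the other members the genes of highest r in deviations from the group means, over the same 10 mice, were as follows. They were Clcn3 (0.976), Myhas (0.952) and Ankrd33b (0.945) for Myh1, and Prkaa2 (0.975), Pja2 (0.974) and Aplnr (0.966) for Myh4. They were Ncapd3 (0.963), Pa2g4 (0.954) and Pik3r3 (0.946) for Myh7b, Rbms3 (0.966), Lef1 (0.960) and Aspm (0.959) for Myh8, and Hnrnpf (0.894), Zfp280c (0.856) and Marchf6 (0.851) for Myh3. For Myh2 they were Iqsec2 (0.877), Nsmf (0.872) and Oip5os1 (0.870), which dropped to 0.315, -0.198 and 0.599 without control 5 and knockout 4. The highest of 10278 such values is large by selection alone, and no test was made.

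The genes that work beside the heavy chains were read from lists, each gene by its brightest probe set. The counts in this and the following paragraphs stand beside the shares over all probe sets tested. Of these 7.69% had an unadjusted p under 0.05 and 2.06% had groups that did not overlap. Of 13 thick filament partners (light chains, myosin binding proteins, myomesins and titin) 9 had a higher mean in knockouts and 4 a lower one, with a median difference of 0.03. Of these 0 were called by limma, and 1 had an unadjusted p under 0.05. Myl4, the embryonic and atrial light chain, had the lowest p: it was 9.84 ± 0.32 in controls and 8.72 ± 0.40 in knockouts, groups that did not overlap, and its difference of -1.12 was not past the threshold (limma, adjusted p = 0.137). Myom1, a protein of the M-band, came next with a difference of 0.13 (adjusted p = 0.774). The light chains that pair with fast heavy chains, Myl1 and Mylpf, differed by 0.03 and 0.06.

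Among 12 fast fibre genes 10 had a higher mean in knockouts and 2 a lower one, with a median difference of 0.03, but with quantile normalization between arrays 5 were higher and 6 lower. By limma 0 were called, and 0 had an unadjusted p under 0.05. Actn3, the actinin of fast fibres, differed by 0.08 (limma, adjusted p = 0.848) and Mylpf by 0.06 (adjusted p = 0.894). Among the 13 slow fibre genes 1 had a higher mean and 12 a lower one, with a median difference of -0.22. Over all 10705 genes tested 48.55% had a higher mean in knockouts. The slow troponins on this list each followed Myh7 from mouse to mouse, so the counts are not of independent genes. By limma 0 of them were called and 1 had an unadjusted p under 0.05. Myoglobin, Mb, was lowest in p, at 14.76 ± 0.05 and 14.62 ± 0.05 with groups that did not overlap (difference -0.14, limma, adjusted p = 0.622), and the slow light chain Myl2 differed by -0.22 (adjusted p = 0.797). The list mean was 12.52 ± 0.23 over controls and 12.31 ± 0.42 over knockouts, and it covered 12.34 to 12.91 and 11.82 to 12.99. Leaving out knockout 1 changed the median difference to -0.10 with 11 of 13 lower, and leaving out control 5 changed it to -0.11 with 10 of 13 lower, so both of these mice move it by more than 1.5 times.

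Regulators of isoform choice, such as the Mef2 factors, the calcineurin and NFAT genes and Ppargc1a, gave 15 higher and 17 lower means of 32 tested, with a median difference of -0.01, 0 called by limma and 3 with an unadjusted p under 0.05. The transcription factor genes of lowest p were Tead1 (-0.23, limma, adjusted p = 0.469) and Prox1 (-0.61, adjusted p = 0.516). Sox6, a repressor of slow fibre genes, differed by 0.02. Of 9 genes of myosin assembly and turnover 4 had a higher mean and 5 a lower one, with a median of -0.04, 0 called by limma and 3 with an unadjusted p under 0.05. The shares over all probe sets tested were 7.69% with such a p and 2.06% with groups that did not overlap. Fbxo32, the F-box subunit of a ubiquitin ligase of atrophying muscle, was 11.79 ± 0.08 in controls and 12.26 ± 0.20 in knockouts, without overlap (difference 0.47, limma, adjusted p = 0.195). Trim63, the ligase MuRF1 that acts on myosin heavy chain, differed by 0.28 (adjusted p = 0.469). The myosin chaperone Unc45b differed by -0.04.

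Of 12 tested genes of embryonic and regenerating fibres 6 had a higher mean in knockouts and 6 a lower one, with a median of 0.005, 0 called by limma and 4 with an unadjusted p under 0.05. Besides Myl4, the one of lowest p was Myf6, a myogenic transcription factor, at 11.74 ± 0.05 and 12.01 ± 0.05 without overlap (difference 0.27, limma, adjusted p = 0.218). Among myosin heavy chains of other tissues 1 of 4 tested had a higher mean and 3 a lower one, with a median of -0.13, 0 called by limma and 1 with an unadjusted p under 0.05. Smooth muscle Myh11 was 8.17 ± 0.29 and 7.68 ± 0.13 without overlap (difference -0.49, limma, adjusted p = 0.417), and non-muscle Myh9 differed by -0.15 (adjusted p = 0.719).

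The markers of the labelled tissue were also read: all 7 defining skeletal muscle genes passed the filter. Passing is a weak check, since 46.5% to 47.6% of probe sets on an array read 4 or more. All 7 muscle genes had a higher mean in knockouts (6 with quantile normalization), with a median difference of 0.04, 0 called by limma and 0 with an unadjusted p under 0.05. Their list mean covered 14.775 to 14.787 in controls and 14.790 to 14.877 in knockouts, ranges that nearly met but did not overlap. The muscle markers of lowest p were the filament protein gene Des, at a difference of 0.10 (limma, adjusted p = 0.918), and the muscle enolase Eno3, at 0.05 without overlap (adjusted p = 0.943), and Acta1 was at 15.23 in both groups. Markers of other cell types of the muscle had lower means in knockouts for 8 of 8 fibroblast genes (median difference -0.42, 1 called, Col1a2 at -0.84, limma, adjusted p = 0.049), 8 of 8 tendon genes (-0.86, with Thbs4 at -0.81 and adjusted p = 0.197, and Fmod at -0.50 and 0.469) and 4 of 4 smooth muscle genes (-0.45, with Tagln at -0.47 and adjusted p = 0.461). The list means of tendon genes covered 8.53 to 9.15 in controls and 7.63 to 8.83 in knockouts, with overlap. Those of fibroblast genes covered 10.81 to 11.14 and 10.24 to 10.76, and those of smooth muscle genes 9.21 to 9.63 and 8.76 to 9.20, both without overlap. How often the list means of other gene sets do not overlap was not examined. Lower means were also found for 5 of 6 endothelial genes (-0.21, with Tek at -0.27 and Vwf at -0.34), 5 of 5 macrophage genes (-0.37, with Csf1r at -0.37 and C1qb at -0.35) and 4 of 4 Schwann cell genes (-0.39, with Pmp22 at -0.31 and Sox10 at -0.40), and for 2 of 4 adipocyte genes (0.004, with Fabp4 at -0.09 and Retn at 0.20), with 0 called by limma in these 4 lists and 3 genes at an unadjusted p under 0.05. Of the tendon genes 0 were called and 7 had an unadjusted p under 0.05, as had all 4 smooth muscle genes, of which 0 were called. Of the 8 fibroblast genes 5 had an unadjusted p under 0.05. Over all probe sets tested these shares were 7.69% with an unadjusted p under 0.05 and 0.0993% called. Groups that did not overlap were found for 2.06% of all probe sets tested. In whole muscle, fewer cells of a type and less RNA per cell cannot be told apart. Control probe sets for RNA integrity also differed in mean: the 3′ signal minus the 5′ signal was 0.49 ± 0.03 for Gapdh in controls and 0.45 ± 0.03 in knockouts, and 1.47 ± 0.06 and 1.40 ± 0.05 for actin (SD, n = 5 each), with overlapping groups. The part of cell composition and of RNA integrity in these values and in those of the myosins was not tested.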

How the data were processed

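RNA of 10 mice was measured on 10 arrays. Trizol served for extraction and NuGEN kits for labelling with biotin, per the labels' protocols. The deposited values are linear intensities, made with GCRMA, per the submitters' processing notes, which corrects background, normalizes between arrays and summarises probes. Which version and settings were used is not stated in the labels. Dim probe sets lie near a floor of this scale, and differences of the brightest may be compressed near its top. The log2 was taken here, with no other normalization. Precision is limited by the number of arrays.

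Names came from the platform annotation (34958 with 1 symbol, 932 with several, 9211 not listed), and no symbol changed through the GRCm38.p6 gene table. The 64 array control probe sets and those with a mean log2 under 4 were left out, which left 21154. The test was limma's moderated test (version 3.58.1, R 4.3.3, lmFit with eBayes, two-sided), adjusted by Benjamini-Hochberg over all 21154 with a threshold of 0.05, and it was tested on simulated data. Relations used 100000 permutations, two-sided, adjusted over 35. The members and gene lists were chosen with earlier results of these data known. Named genes are all members, the called genes of each list or else the 2 of lowest p, and the 3 genes most like each member. Other genes of the lists named in the text (Myl1, Mylpf as a thick filament partner, Sox6, Unc45b and Acta1) were chosen after their values were seen. The planned protein comparison was not made. Alternatives were the filter, the normalization, the variance model, array weights, the replicate block, the hybridisation controls, the probe set of a gene and each array left out.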

Additional observations from a re-analysis of the deposited data

Results flagged for a closer look

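In groups of 5 arrays, 6 of 26 examined had 1 array far from the other 4 by Dixon's criterion, which chance gives in about 1 of 20 groups, or 1.3 of 26. Knockout 1 was the far array in 3 of them. Its brightest Myh1 probe set was high, at 15.09 against 14.97 to 14.98 in the other knockouts. Its dimmest Myh1 probe set, 1452465_at, was low, at 10.38 against 10.61 to 10.69. Its Myh7b was low, at 5.54 against 6.50 to 6.67. Knockout 4 was low for Myh2, at 14.86 against 15.03 to 15.07. Control 1 was low for Myh4, at 15.60 against 15.67 to 15.70. Control 5 was high for the mean of the slow fibre list, at 12.91 against 12.34 to 12.50.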

How the results depend on the processing

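The count of 21 probe sets past the threshold over the whole array changed with most settings. It was 11 without the filter, 36 with quantile normalization, 58 with a variance trend and robust fit, 67 with array weights, 99 with the hybridisation controls as a covariate and 5 without the 3 arrays of highest hybridisation controls. Leaving out 1 array gave 1 to 17 probe sets. Stricter filtering, a floor at log2 4 and median centring gave 27, 21 and 28. No myosin heavy chain probe set was called in any of these settings, and the lowest adjusted p of any was 0.442, with array weights. For the brightest Myh4 probe set quantile normalization could not have shown a difference. It had rank 5 on each of the 10 arrays, so that setting gave it the same value on all of them.

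The replicate numbers of the titles are shared by the groups, and deviations from the group means correlated, by number, at -0.51, 0.13, 0.62, -0.20 and 0.19. Mice of unlike number were not compared, so whether the numbers pair the mice was not tested. With the replicate block 1 probe set was past the threshold.

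The differences of Myh1, Myh3, Myh7 and Myh7b kept their sign in all settings tried for them, from 0.02 to 0.13 for Myh1, -0.44 to -0.09 for Myh3, -0.62 to -0.11 for Myh7 and -0.64 to -0.22 for Myh7b. With 1 array left out, Myh2 ran from -0.066 (without control 5) to 0.0014 (without knockout 4), Myh4 from -0.0012 to 0.024 and Myh8 from -0.056 to 0.36. Myh4 turned to -0.0012 without control 1, -0.0019 as the mean of its probe sets and -0.019 with its next brightest one. Myh8 turned to -0.056 without control 1 and to -0.01 without knockout 3. The causes were not tested. Leaving out knockout 1 or control 5 for the slow fibre list was chosen after seeing the data.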
